A study of Homo sapiens with 4 samples.

Results

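The G2 and mitosis genes described here are 40 human genes, chosen by gene symbol, whose products carry cells from the end of DNA replication through chromosome segregation to cytokinesis. They are 40 of the 20041 genes that have a probe with 1 symbol on the Illumina Expression BeadChip. All 61 of their probes were taken, and each gene is represented by its brightest detected probe, which for 40 of 40 genes was detected on 4 of 4 arrays. A probe counts as detected at a detection p-value of at most 0.01, and 12083 genes had such a probe on at least 1 array. The members fall into 9 groups, which are mitotic kinases (4 genes), cyclins and CDC25 phosphatases (5), spindle checkpoint (5), activation of the anaphase-promoting complex and anaphase onset (4), kinesins (5), kinetochore (6), chromosomal passenger partners (3), spindle and chromosome factors (5) and cytokinesis (3).

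The arrays measured total RNA from human embryonic stem cells, a pluripotent cell type, in 4 conditions with 1 array each. Cells of all 4 conditions were grown in E8, a defined medium that keeps stem cells pluripotent, on plates coated with matrigel. The E8 array is the untreated culture, labelled 24 h, the Nam array had 10 mM nicotinamide (the amide form of vitamin B3) for 24 h, and the Y27632 array had 10 µM of the small molecule Y27632 for 24 h. The Mesoderm array had BMP4, a signalling protein that induces mesoderm, for 6 days, at a dose not given in the sources used here. No culture kept for 6 days without BMP4 was analysed here, so BMP4 and time in culture cannot be told apart. Culture density, which the labels' growth protocol describes as low or high, is not assigned to the samples. The labels name the established line H9 in one field and H1 in another, the same for all 4 samples. With 1 array per condition there is no replicate check, no test was run, and array-to-array differences also hold whatever varied from culture to culture.

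Levels below are normalized log2 signals, and differences are log2 differences between 2 arrays. A gene is counted as higher or lower when the normalized difference is at least 1.5-fold, which is 0.58 on the log2 scale. This includes genes that the dimmer array did not detect, whose fold is given as a bound that can be under 1.5. As a technical spread, the SD of a difference among the probes of a gene was taken over all genes with several detected probes. It was 0.30 for Nam against E8 (2951 genes), 0.25 for Y27632 against E8 (2833), 0.42 for Mesoderm against E8 (3046) and 0.29 for Nam against Y27632 (2836). The mean signal was between 528.5 and 620.5 on the 4 arrays, and between 16509 and 18051 of 47296 probes were detected. In counts of detected pluripotency and mesoderm markers the arrays matched their labelled cell states. Of 9 pluripotency markers with a probe, 9 were detected on E8, Nam and Y27632 and 7 on Mesoderm, and their summed signal ran from 42879 to 55245 on those 3 arrays and was 18694 on Mesoderm. Of 10 mesoderm and primitive streak markers, 0 were detected on E8 and Y27632, 1 on Nam and 9 on Mesoderm. The one on Nam was at 0.94 from E8, and 1 pluripotency marker was at -1.50 there. Of 4 neuroectoderm markers, 2 were detected on E8 and Nam, 3 on Y27632 and 1 on Mesoderm. The 2 compared with E8 were at -1.20 and -1.22 on Nam, and 2 were at -6.23 and 1.69 on Mesoderm. The Mesoderm array also detected 4 of 4 endoderm markers, 3 of 6 trophoblast and amnion markers and 6 of 6 fibroblast and smooth muscle markers, against 0, 0 and 3 on each of the other arrays. The part of this mix of cell types in the differences of the members was not tested.

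Cells enter mitosis when the kinase CDK1, bound to cyclin B, escapes inhibition by phosphorylation, a block that CDC25 phosphatases remove. Aurora and Polo kinases then build the spindle, kinetochores tie chromosomes to microtubules, and the spindle checkpoint holds back the anaphase-promoting complex, a ubiquitin ligase, until every chromosome is attached. Transcripts of most of these genes peak together late in the cell cycle, through promoters bound by the factor NF-Y at CCAAT boxes and by the DREAM and MuvB complexes at an element called CHR, whereas genes of DNA replication rely more on E2F sites. Human embryonic stem cells are known for fast division with a short G1 phase.

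Promoter windows from RefSeq (build GRCh38.p14, 250 bases before to 50 after the annotated start) matched 34 of the 40 members by symbol. AURKA, BUB3, TTK, UBE2C, BIRC5 and TPX2 had no entry. The letters TTTGAA or TTTAAA, forms of the CHR, were searched on both strands, as were CCAAT and the E2F forms TTCGCGC or TTGGCGC or TTCCCGC or TTGCCGC. Of these, TTTAAA reads the same on both strands, and TTGGCGC on one strand can overlap CCAAT on the other. A CHR form was found in 28 of 34 member promoters (82.4%), against 24.3% of 27305 promoters. CCAAT was found in 25 of 34 (73.5%), against 35.7% of all promoters, and both together in 22 of 34 (64.7%), against 9.49%. An E2F form was found in 11 of 34 (32.4%), against 13.1% of all promoters. For 31 genes of DNA replication with a promoter entry the order was the other way round, with a CHR form in 3 (9.68%) and an E2F form in 23 (74.2%), as the plot of motif shares shows. CCAAT was found in 19 of those 31 (61.3%), close to its share in the members. The search covered only this window of each gene, so other starts and other forms of these motifs were not searched. A match is only a run of letters and was not tested as a binding site.

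**Figure D1:**
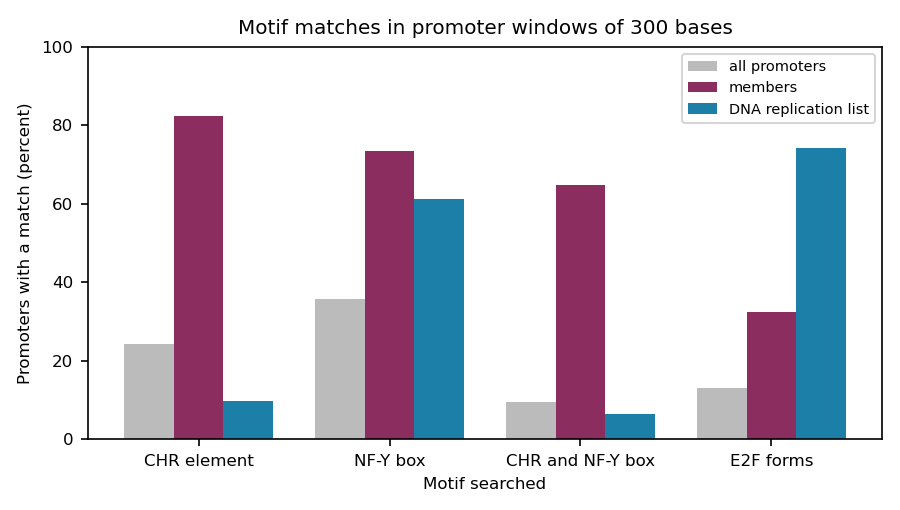
Percent of 300-base promoter windows with at least 1 match (vertical axis) to each motif searched (horizontal axis), for all 27305 promoters, 34 members and 31 DNA replication genes. The members stand highest for the CHR element (82.4%) and the DNA replication list for the E2F forms (74.2%).

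A group of 4 promoters is printed to show these layouts, each read on the gene's own strand with every match in capitals. CCNB1 (chr5:69166900-69167199, plus strand), CDC20 (chr1:43358731-43359030, plus strand) and PLK1 (chr16:23678639-23678938, plus strand) hold a CHR form and CCAAT. The window of CDC25C (chr5:138338306-138338605, minus strand), the member furthest above E8 on the Mesoderm array, has 1 E2F form and no match to either of these. Other starts of CDC25C were not searched, so this does not show that the gene lacks these elements.
CCNB1: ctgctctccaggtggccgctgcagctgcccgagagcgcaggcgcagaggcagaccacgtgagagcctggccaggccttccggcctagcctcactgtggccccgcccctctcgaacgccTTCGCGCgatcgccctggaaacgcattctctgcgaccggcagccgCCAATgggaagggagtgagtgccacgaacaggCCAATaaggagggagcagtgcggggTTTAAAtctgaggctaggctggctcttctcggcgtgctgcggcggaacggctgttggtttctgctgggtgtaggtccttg
CDC20: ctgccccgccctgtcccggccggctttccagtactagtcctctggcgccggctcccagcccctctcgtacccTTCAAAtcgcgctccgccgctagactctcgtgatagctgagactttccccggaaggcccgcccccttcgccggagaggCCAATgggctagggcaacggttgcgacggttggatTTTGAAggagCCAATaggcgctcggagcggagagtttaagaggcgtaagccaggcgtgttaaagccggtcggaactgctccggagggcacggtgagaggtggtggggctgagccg
PLK1: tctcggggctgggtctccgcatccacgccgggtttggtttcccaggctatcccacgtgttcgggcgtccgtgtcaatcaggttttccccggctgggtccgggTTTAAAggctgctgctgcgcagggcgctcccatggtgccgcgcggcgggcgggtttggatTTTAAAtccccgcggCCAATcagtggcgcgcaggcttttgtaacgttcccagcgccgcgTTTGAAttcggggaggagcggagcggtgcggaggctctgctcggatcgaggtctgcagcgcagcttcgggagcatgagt
CDC25C: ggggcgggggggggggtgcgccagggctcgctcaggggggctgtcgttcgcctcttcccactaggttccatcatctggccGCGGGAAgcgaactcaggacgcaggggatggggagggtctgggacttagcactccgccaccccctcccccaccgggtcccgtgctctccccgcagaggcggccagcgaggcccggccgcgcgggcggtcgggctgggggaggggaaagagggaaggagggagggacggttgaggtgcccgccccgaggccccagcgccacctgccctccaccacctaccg

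Across the 3 arrays of pluripotent cultures no member differed by 1.5-fold, a size that few other genes of like level reached either. The range of a member over E8, Nam and Y27632 had a median of 0.16 and a maximum of 0.58 (CKAP2), beside a median of 0.21 over genes with a mean level of at least 8, and 0 of 40 members spanned 1.5-fold, against 16.9% of 12083 genes and 5.57% of those 6303 genes. That level is met by 39 of the 40 members, which are well above background, so the second share is the closer comparison. In Nam minus E8 the median member difference was 0.00, with 20 of 40 above 0, beside a median of 0.04 and 55.7% above 0 over all genes compared. At least 1.5-fold higher or lower were 0 members. Among 11390 genes compared, 4.93% were higher and 6.69% lower by that rule, and among genes with a mean of at least 8 these shares were 1.27% and 3.59%. In Y27632 minus E8 the median was 0.03 and 0 members were called in either direction, against 1.58% higher and 2.03% lower of 10989 genes, and 0.0317% and 0.301% of those with a mean of at least 8. The median absolute difference on Y27632 was 0.11 for the members and 0.09 for genes with a mean of at least 8. Nam and Y27632 also differed little from each other, with a median of -0.02, 0 members called, and 4.69% higher and 4.89% lower of 11173 genes (0.555% and 1.98% of those with a mean of at least 8). The comparisons with E8 share the E8 array and are not independent of each other.

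**Figure D2:**
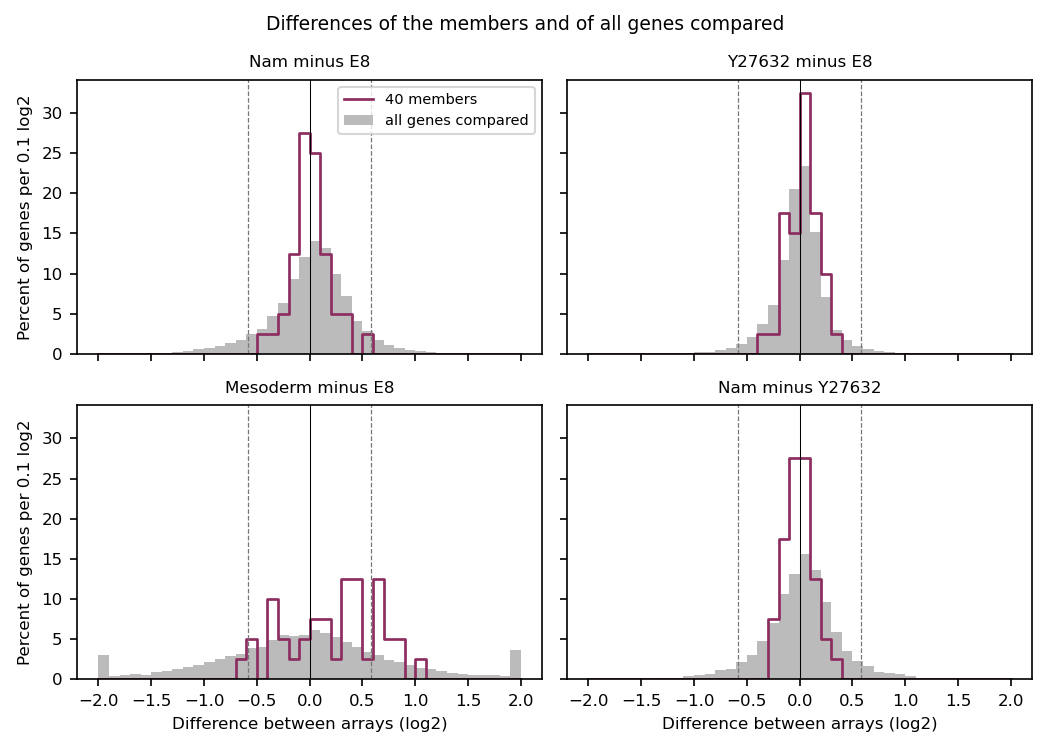
Distribution of log2 differences between arrays (horizontal axis) as percent of genes per bin of 0.1 (vertical axis) for all genes compared (grey) and the 40 members (line), with dashed lines at 1.5-fold and values beyond 2 log2 units placed in the outermost bins. The members lie inside the dashed lines in 3 of the 4 panels and spread to 1.05 in Mesoderm minus E8.

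On the Mesoderm array the members were more often above E8 than below it. The median difference was 0.31, with 28 of 40 above 0, beside a median of -0.02 over 11649 genes, of which 48.9% were above 0. At least 1.5-fold higher were 10 of 40 members and at least 1.5-fold lower 1, against 20.3% and 22.5% of all genes compared, and 14.3% and 19.8% of those with a mean of at least 8. The median absolute difference was 0.39 for the members, 0.49 for all genes and 0.40 for those with a mean of at least 8. The share of 10 in 40 called higher is above both background shares and that of 1 in 40 called lower is below both, differences that were not tested. With each array scaled to a common median in place of quantile normalization, the median of all genes moved to -0.19. The counts were then 5 members higher and 3 lower (BUB1B, CENPF and ASPM), and the median member difference was 0.20. Of all genes, 15.9% were higher and 29.3% lower under that scaling, so the share of 5 in 40 called higher is below that of all genes. BUB1, NUF2, TOP2A, PRC1 and ANLN then lay below 1.5-fold. Relative to the other 3 arrays, 24 of 40 members were higher on Mesoderm than on each of them, 9 were lower than on each, and 7 lay within their range. Among all 12083 genes 37.0% were higher than on each and 43.5% lower than on each, and among those with a mean of at least 8 these shares were 36.6% and 46.4%. At least 1.5-fold above each of the other 3 arrays were 8 members and at least 1.5-fold below each 0, against 14.3% and 15.5% of all genes. In bulk samples such as these, a different number of dividing cells and a different amount of RNA per cell cannot be told apart.

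**Figure D3:**
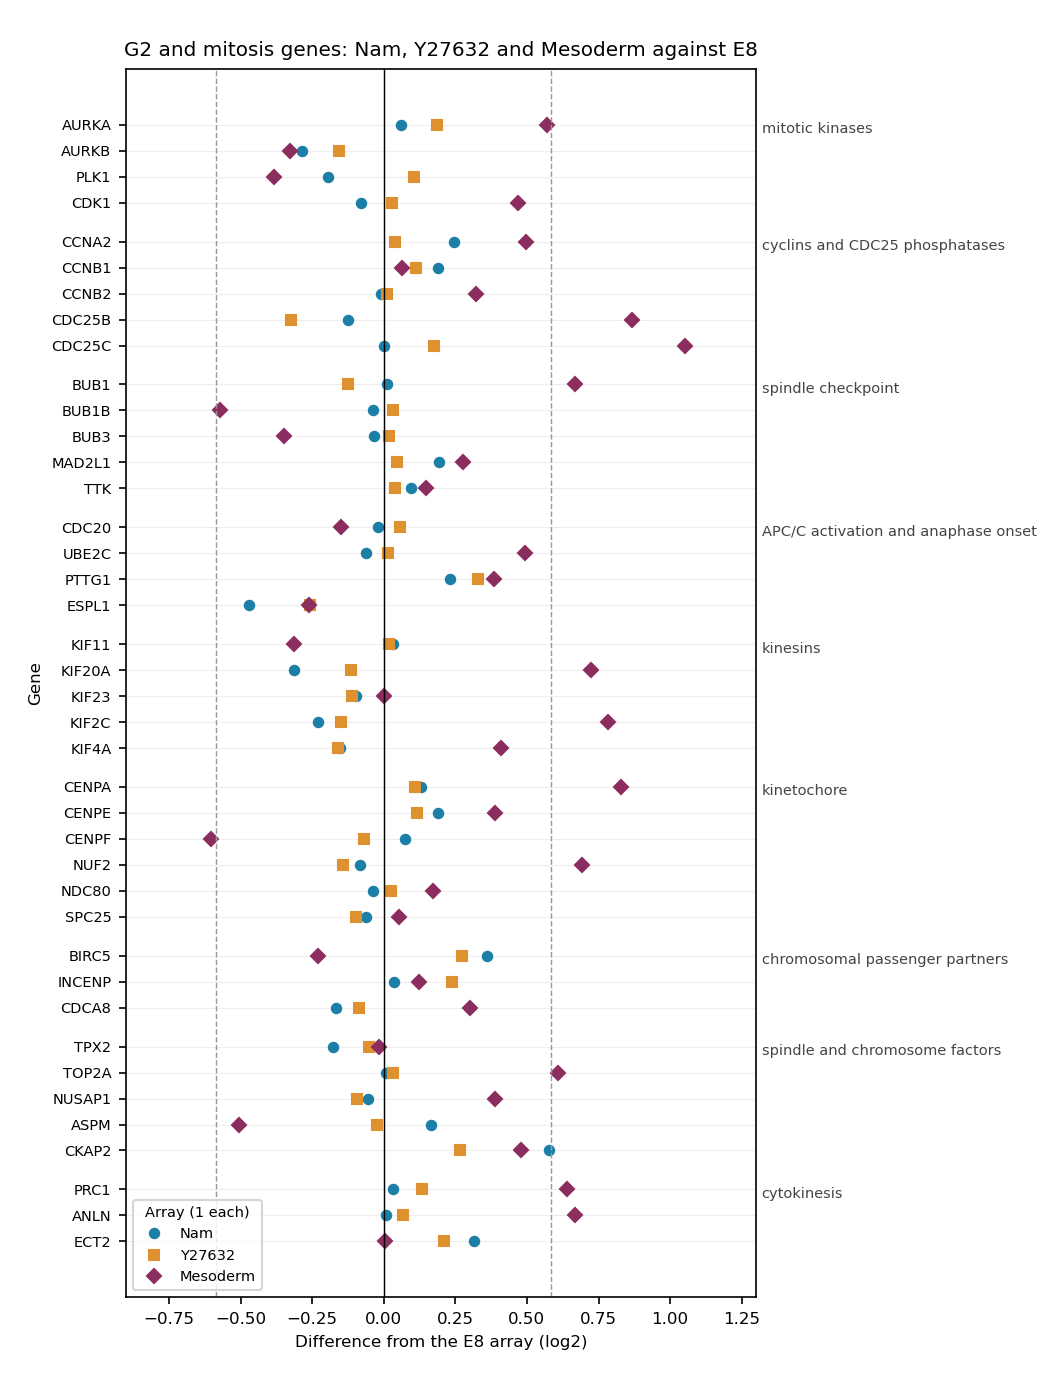
Log2 difference from the E8 array (horizontal axis) of each of the 40 genes (vertical axis, ordered by group) on the Nam, Y27632 and Mesoderm arrays, 1 array each, with dashed lines at 1.5-fold. Nam and Y27632 points lie between -0.47 and 0.58, while Mesoderm points run from -0.60 for CENPF to 1.05 for CDC25C.

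The mitotic kinases did not move as a block. AURKA, the Aurora kinase of the spindle poles, had levels of 11.53 (E8), 11.59 (Nam), 11.72 (Y27632) and 12.10 (Mesoderm), and its 2 probes gave Mesoderm differences of 0.57 and 0.46. CDK1, the kinase that drives entry into mitosis, stood at 11.56, 11.48, 11.59 and 12.03 in the same order, a Mesoderm difference of 0.47 (mean of 2 probes 0.59). Both were highest on Mesoderm without reaching 1.5-fold by the brighter probe. AURKB, the Aurora kinase of the chromosomal passenger complex, had levels of 11.25, 10.96, 11.09 and 10.92. PLK1, the Polo kinase of spindle assembly and mitotic exit, had levels of 9.21, 9.02, 9.32 and 8.83, a Mesoderm difference of -0.38. For AURKB and PLK1 Mesoderm was the lowest of the 4 arrays. AURKB has 1 probe, and its Mesoderm level lay only 0.04 below Nam, less than the spread between probes of other genes in each comparison made.

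All 5 cyclin and CDC25 genes were above E8 on the Mesoderm array, as were 48.9% of all genes compared, with a median of 0.50. CDC25C, a phosphatase that activates CDK1, had levels of 8.90 (E8), 8.90 (Nam), 9.08 (Y27632) and 9.95 (Mesoderm). Its Mesoderm difference of 1.05 (2.07-fold) was the only member difference to reach 2-fold, a size that 10.6% of all genes reached upward and 11.4% downward, and its 3 probes gave 1.05, 0.78 and 0.64. The signals before normalization were 665.2 on E8 and 1112 on Mesoderm. CDC25B, a phosphatase that starts CDK1 activation at the centrosome, stood at 9.48, 9.35, 9.15 and 10.34, a difference of 0.87 (1.82-fold), and had its lowest level on Y27632. The Mesoderm level lay above each of the other arrays by at least 0.88 for CDC25C and 0.87 for CDC25B. CCNA2 (cyclin A2), which acts in S phase and early mitosis, had levels of 11.70, 11.95, 11.74 and 12.20. CCNB2 had 11.52, 11.51, 11.53 and 11.85, while CCNB1, the main partner of CDK1, had 10.86, 11.04, 10.97 and 10.92. The level of CCNB1 on Mesoderm thus lay among the pluripotent cultures, and those of CCNA2 and CCNB2 lay above them by 0.25 and 0.31.

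Genes of the spindle checkpoint split. BUB1, a kinase that recruits checkpoint proteins to kinetochores, had levels of 10.72 (E8), 10.73 (Nam), 10.60 (Y27632) and 11.39 (Mesoderm), a Mesoderm difference of 0.67. Its paralog BUB1B (BubR1), part of the complex that inhibits the anaphase-promoting complex, had 10.03, 10.00, 10.07 and 9.46, a difference of -0.57 (1.49-fold lower), just inside the 1.5-fold limit. The 3 pluripotent cultures agree within 0.14 for BUB1 and 0.07 for BUB1B, and Mesoderm lay outside them on opposite sides. BUB3, which binds both, had 12.79, 12.76, 12.81 and 12.44, and its 3 probes detected on every array gave Mesoderm differences of -0.35, -0.59 and -0.20. The fourth BUB3 probe, with levels from 5.41 to 5.93, was detected on 2 arrays and gave 0.40. MAD2L1 (MAD2), the protein that captures CDC20, was at 0.28 (mean of 2 probes 0.44), and TTK (MPS1), the kinase that starts checkpoint signalling, at 0.15.

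In the group of anaphase onset 0 of 4 members reached 1.5-fold. On Mesoderm 20.3% of all genes were that much higher than on E8 and 22.5% that much lower, so 0 in so small a group says little. CDC20, the activator of the anaphase-promoting complex, had levels of 12.46 (E8), 12.43 (Nam), 12.51 (Y27632) and 12.30 (Mesoderm). UBE2C, the ubiquitin-conjugating enzyme of that complex, had 12.38, 12.32, 12.40 and 12.88, a Mesoderm difference of 0.49, while its second, dim probe, not detected on Mesoderm, gave -0.13. PTTG1 (securin), which holds separase inactive, had 12.87, 13.11, 13.20 and 13.26. Its probes may also read its close relative PTTG2. ESPL1 (separase), the protease that cuts cohesin, had 8.50, 8.03, 8.24 and 8.24. By these probes PTTG1 was lowest and ESPL1 highest on the E8 array, and Mesoderm lay within 0.06 of a pluripotent array for both. The other PTTG1 probe had 11.35, 11.22, 11.48 and 11.55, and was lowest on Nam. The ESPL1 difference of -0.47 was the most negative of the members in Nam minus E8.

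Among kinesins the sign also differed by gene. KIF20A, a motor of the central spindle needed for cytokinesis, had levels of 11.22 (E8), 10.90 (Nam), 11.10 (Y27632) and 11.94 (Mesoderm). KIF2C (MCAK), which removes tubulin from microtubule ends and corrects wrong attachments, had 9.70, 9.47, 9.55 and 10.48. Both were at least 1.5-fold higher on Mesoderm, by 0.72 and 0.78, and both had their lowest level on Nam, at -0.31 and -0.23 from E8. KIF4A, a chromosome-bound motor, was at 0.41 on Mesoderm. KIF11 (Eg5), which pushes the spindle poles apart, had 10.84, 10.88, 10.86 and 10.53, and its 2 probes gave Mesoderm differences of -0.31 and -0.57. KIF23 (MKLP1), a subunit of centralspindlin at the midzone, differed by 0.00 (mean of 2 probes 0.14). The levels of KIF11 on the 3 pluripotent cultures lay within 0.03, and the Mesoderm level was below them by 0.31.

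The kinetochore group of 6 genes held the lowest member and 2 of the 10 higher ones on Mesoderm, where 20.3% of all genes were higher and 22.5% lower. CENPA, the histone variant that marks centromeres, had levels of 9.37 (E8), 9.50 (Nam), 9.48 (Y27632) and 10.20 (Mesoderm), with Mesoderm differences of 0.83 and 0.89 by its 2 probes. NUF2, a subunit of the NDC80 complex that binds microtubules, had 9.49, 9.41, 9.35 and 10.18, a difference of 0.69 (mean of 3 probes 1.02, SD 0.31, 1 of them not detected on E8). CENPF, a large protein of the outer kinetochore and nuclear envelope, had 10.77, 10.84, 10.70 and 10.17, a difference of -0.60 (1.52-fold lower). For CENPA and NUF2 Mesoderm lay above each of the other arrays by at least 0.69, and for CENPF it lay below each by at least 0.53. The partners of NUF2 in the same 4-subunit complex showed smaller differences, 0.17 for NDC80 and 0.05 for SPC25, and SPC24, which is not among the members, was at -0.33. A second SPC25 probe, near background, had levels of 5.73, 6.71, 5.97 and 6.91, with differences of 0.98 on Nam and 1.18 on Mesoderm. CENPE, a kinesin that carries chromosomes to the spindle equator, was at 0.39 on Mesoderm (mean of 2 probes 0.34).

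Partners of AURKB in the chromosomal passenger complex differed from each other as well. BIRC5 (survivin) had levels of 10.29 (E8), 10.65 (Nam), 10.57 (Y27632) and 10.06 (Mesoderm) by its brighter probe, and 6.88, 7.38, 6.87 and 7.37 by a dimmer one annotated to another transcript. Both probes were higher on Nam than on E8, by 0.36 and 0.50, but they disagreed in sign on Mesoderm, at -0.23 and 0.49. CDCA8 (borealin), which ties the complex to centromeres, was at 0.30 on Mesoderm. INCENP, the scaffold of the complex and the dimmest member, had 7.70, 7.74, 7.94 and 7.82, and its other probe was not detected on any array.

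Factors of the spindle and of mitotic chromosomes ranged from -0.50 to 0.61 on Mesoderm. TOP2A, the topoisomerase that untangles sister chromosomes, had levels of 12.32 (E8), 12.33 (Nam), 12.35 (Y27632) and 12.93 (Mesoderm), a difference of 0.61. ASPM, a protein of spindle poles known for its role in brain size, had 11.09, 11.25, 11.07 and 10.59, a difference of -0.50. CKAP2, a microtubule-binding protein, had 9.89, 10.46, 10.15 and 10.37, and was lowest on E8. TOP2A varied by 0.03 over the pluripotent cultures and was higher on Mesoderm, and ASPM was lower there than on each other array by at least 0.48. The CKAP2 level on Mesoderm lay below that on Nam by the probe used. Its other probe had the reverse order, with 10.42 on Mesoderm and 10.31 on Nam. CKAP2 had the most positive member difference in Nam minus E8, 0.58 by one probe and 0.34 by the other. NUSAP1, which bundles spindle microtubules, was at 0.39 on Mesoderm, and TPX2, which activates AURKA on the spindle, at -0.01.

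In the cytokinesis group 2 of 3 genes were at least 1.5-fold higher on Mesoderm, as were 20.3% of all genes, and both were under that size with median scaling (PRC1 0.52, ANLN 0.53). PRC1, which cross-links microtubules of the central spindle, had levels of 11.37 (E8), 11.41 (Nam), 11.51 (Y27632) and 12.01 (Mesoderm), a difference of 0.64. ANLN (anillin), a scaffold of the contractile ring, had 10.26, 10.27, 10.33 and 10.93, a difference of 0.67. ECT2, the exchange factor that switches on RhoA at the cleavage site, had 10.90, 11.22, 11.11 and 10.91. For PRC1 and ANLN the Mesoderm level lay above each pluripotent culture by 0.51 and 0.60, whereas for ECT2 it was at the E8 level and below Nam, where ECT2 differed from E8 by 0.31.

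Where a gene had several probes, these mostly gave the same direction on the Mesoderm array. Of 16 members with at least 2 probes detected on E8 or Mesoderm, 12 had all probes on the same side of 0 and 4 did not (BUB3, UBE2C, KIF23 and BIRC5). The pooled SD between probes of these members was 0.32 for Mesoderm minus E8, 0.25 for Nam minus E8 and 0.14 for Y27632 minus E8. Most differences on Nam and Y27632 are thus no larger than the disagreement between probes of one gene. By normalized difference all probes were at least 1.5-fold higher on Mesoderm for 3 genes, CDC25C, CENPA and NUF2. However, 1 NUF2 probe was detected on Mesoderm only, at 5.98, beside a lowest detected level of 5.59 on E8. Its fold is thus a bound under 1.5, and by bounds only CDC25C and CENPA remain. The share of all genes with several probes that meet this rule is not given here.

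**Figure D4:**
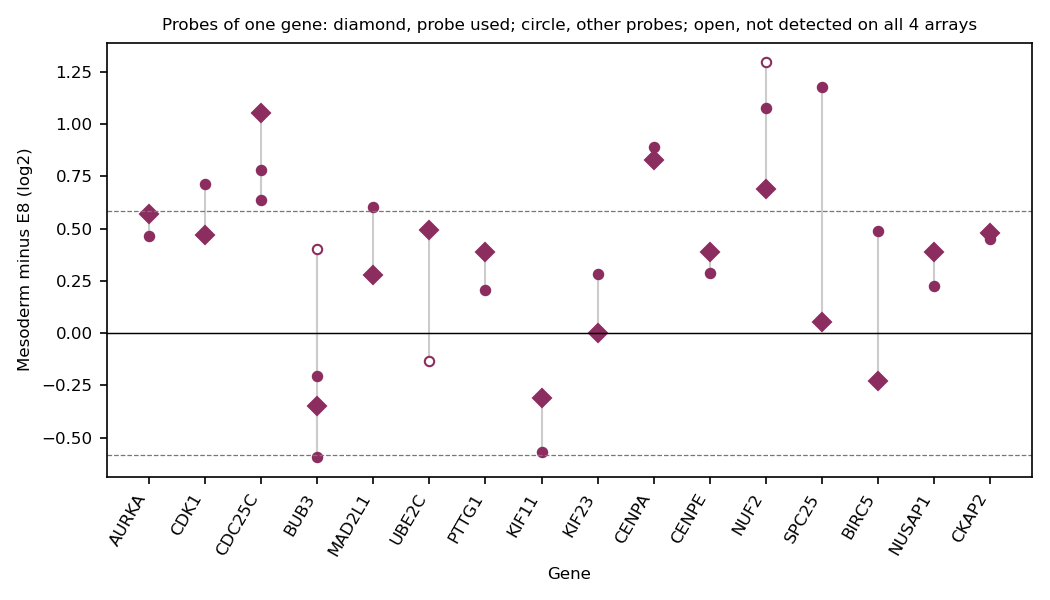
Mesoderm minus E8 difference (log2, vertical axis) of each probe detected on E8 or Mesoderm for the 16 members with 2 or more such probes (horizontal axis), with diamonds for the probe used, circles for other probes, open symbols for probes not detected on all 4 arrays and dashed lines at 1.5-fold. CDC25C, CENPA and NUF2 lie above the upper dashed line with every probe, though 1 NUF2 probe was detected on Mesoderm only. SPC25 shows the widest gap, 1.13.

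Members with and without a promoter motif overlapped in their Mesoderm differences for each motif. The 28 members with a CHR form had a median Mesoderm difference of 0.29 (from -0.60 to 0.83). The 6 without a match to the forms searched had a median of 0.58 (from -0.33 to 1.05). Those 6 may hold a CHR in another form or at another start, which was not searched. Among the 10 members at least 1.5-fold higher, 7 have a CHR form, as do 82.4% of the 34 members with a promoter entry. The 25 members with CCAAT had a median of 0.28 (from -0.60 to 0.83, 5 of them higher), and the 9 without it had a median of 0.67 (from -0.57 to 1.05, 5 of them higher). Of all genes compared, 20.3% were higher. The members with and without an E2F form had medians of 0.39 (11 genes) and 0.32 (23 genes).

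Other genes of the same pathway were counted from lists of related genes. Over 6 lists of regulators, cohesion, kinetochore, spindle and degradation genes, 109 genes were compared in Mesoderm minus E8, with a median of -0.08. Counted as higher were 17 (15.6%) and as lower 11 (10.1%), and 10 of the 11 lower ones remain when bounds are used. Of all genes, 20.3% were higher and 22.5% lower, and of those with a mean of at least 8, 14.3% and 19.8%. The same shares stand beside the counts of single lists. Of 22 other spindle, kinesin and midbody genes, 5 were higher and 0 lower (median 0.07). The 3 furthest above E8 were CEP55, which organises the final cut of the midbody (1.21), RACGAP1, the partner of KIF23 in centralspindlin (0.78), and KNSTRN, a kinetochore and spindle protein (0.77). MKI67, the antigen of dividing cells known as Ki-67, had levels of 7.52 (E8), 7.89 (Nam), 7.72 (Y27632) and 7.44 (Mesoderm), and did not reach 1.5-fold in any comparison. Of 28 other centromere and kinetochore genes, 3 were higher on Mesoderm, CENPC (1.04), HJURP, the loading factor of CENPA (0.85), and KNL1 (0.75), and 3 were lower, CENPU (-1.51), SKA3 (-0.69) and PMF1 (-0.68).

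Regulators of mitotic entry and of G2 transcription had medians of -0.26 and -0.28 on Mesoderm. Their counts stand beside 20.3% of all genes higher and 22.5% lower. Of 12 entry genes, 2 were at least 1.5-fold higher, BORA, which helps AURKA to activate PLK1 (1.07), and NEK2, a kinase of centrosome separation (0.87). Among 3 lower ones were PKMYT1, a kinase that inhibits CDK1 (-0.94), CHEK2, a checkpoint kinase (-0.77), and ARPP19, an inhibitor of the phosphatase that opposes CDK1 (-0.77). Of 17 transcription regulators, 4 were higher, including NFYA, a subunit of NF-Y (0.70), RBL2, a pocket protein of DREAM (0.63), and LIN37, a MuvB subunit not detected on E8 (at least 1.58-fold), and 4 were lower, including TFDP2 (-0.83), FOXM1 (-0.74) and NFYB, not detected on Mesoderm, whose normalized difference is -0.61 and whose bound is only 1.38-fold. FOXM1, the factor that activates many late mitotic genes, had levels of 10.14 (E8), 9.91 (Nam), 9.95 (Y27632) and 9.40 (Mesoderm), so its own transcript was lower on Mesoderm while 28 of 40 members were above E8. MYBL2, which acts with MuvB, had levels of 5.08 (E8), 5.62 (Nam), 4.82 (Y27632) and 5.41 (Mesoderm) and was detected on Nam only. The lowest detected level on Nam is 5.54 and the bound against E8 is 1.03-fold, so the probe is near background on each array and its differences are not measurable.

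Genes of DNA replication, the step before G2, stood mostly below E8 on the Mesoderm array, 28 of 33 of them, while 48.9% of all genes compared were above E8. In all, 17 replication genes were at least 1.5-fold lower on Mesoderm and 1 was higher, with a median of -0.61 against 0.31 for the members. Among all genes compared 22.5% were lower and 20.3% higher. The 3 lowest were GINS4, of the replicative helicase (-2.61), RRM2, a subunit of ribonucleotide reductase (-1.90), and MCM5, of the helicase ring (-1.71), and TYMS, thymidylate synthase, was the one higher gene (0.99). On the Nam array the replication list had a median of 0.18, with 24 of 34 genes above E8 and GINS4 at -1.87. All genes compared had a median of 0.04 there, with 55.7% above E8. On Y27632 the list had a median of -0.01, with GINS4 at -1.11. Of 11 G1 cyclins, CDKs and CDK inhibitors, 1 was higher on Mesoderm and 2 were lower, CCND3 (-0.72) and CDKN1C (-0.64). The higher one was CDKN1A (p21), an inhibitor of cyclin-dependent kinases, with levels of 9.07 (E8), 8.10 (Nam), 9.17 (Y27632) and 12.81 (Mesoderm), and CDKN1B (p27) had 9.34, 9.36, 9.27 and 9.58. CDKN1A was thus far highest on Mesoderm and lowest on Nam (-0.97 from E8), where CDKN2D was also lower (-0.61).

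**Figure D5:**
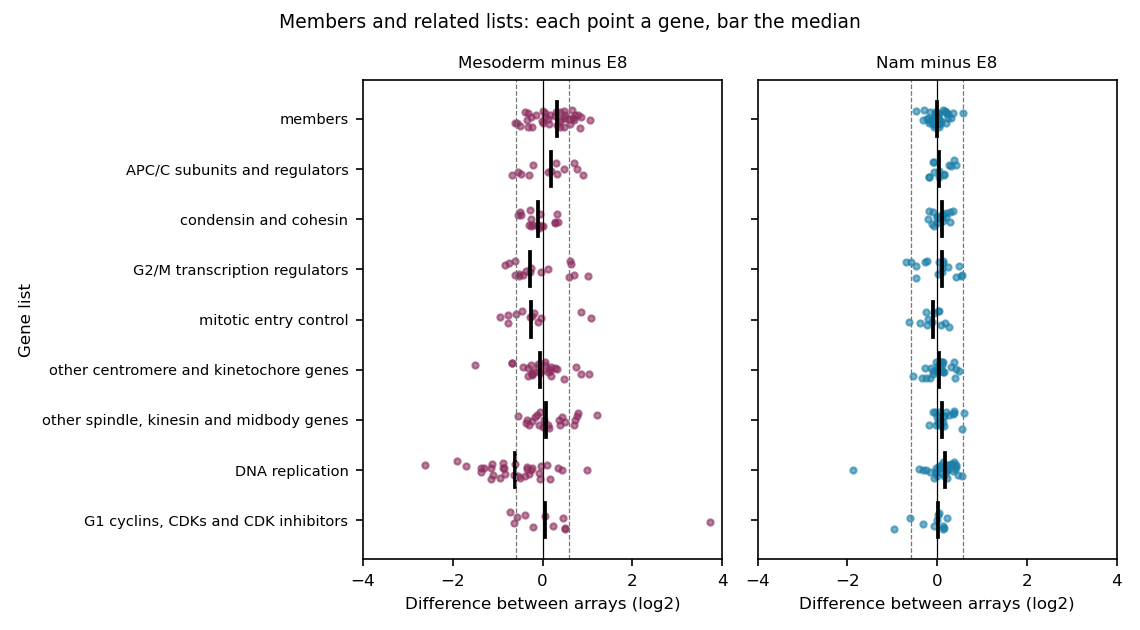
Log2 difference between arrays (horizontal axis) for Mesoderm minus E8 (left) and Nam minus E8 (right), by gene list (vertical axis), where each point is a gene, the bar is the list's median and dashed lines mark 1.5-fold. In the left panel the members have a median of 0.31 and the DNA replication list one of -0.61, and the point furthest right is CDKN1A (3.74).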

How the data were processed

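Signals came from the authors' deposited table of non-normalized values, with 47296 probes and 4 arrays. Per the file headers it has a value (read here as linear intensity) and a detection p-value for every probe and array. Labelled cRNA was made with a TargetAmp-Nano kit, per the labels' protocols; scanner software is not given in the sources used here. A second deposited table holds the authors' normalized log2 values (how they were normalized is not given in the sources used here; the median is 5.58 on every array, and the series matrix is identical). From the signals, limma 3.58.1 (neqc, R 4.3.3) estimated the background through those p-values, corrected for it with an offset of 16, applied quantile normalization over 4 arrays and took log2; the step was tested on simulated data. The offset makes differences of dim genes too small. Symbols came from the platform annotation (30105 probes with 1 symbol, 8 with several, 17183 unnamed here) and were checked by gene identifier, which changed 0. A gene was compared where its brightest detected probe was detected on either array. Where the dimmer array did not detect a probe, the fold is a bound against the higher of its value and the lowest detected level there. Named genes are the 40 members and, per related list and comparison, up to 3 genes at least 1.5-fold away in each direction, with FOXM1, MYBL2, MKI67, CDKN1A and CDKN1B. Members and lists were chosen with earlier results of these data known. Alternatives varied background correction, offset, normalization, filter and probe choice. The number of arrays limits the precision.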

Additional observations from a re-analysis of the deposited data

How the results depend on the processing

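Each median and count of the members was recomputed under up to 10 alternatives, giving 117 values. Of these, 109 stayed within the technical spread (medians) or within 1.5 times (counts), and the other 8 are counts. The technical spread (0.42 in Mesoderm minus E8) is that between probes of single genes, a wide limit for a median over many genes. A fall of the Mesoderm minus E8 median from 0.31 to 0.20 counted as staying, so the medians among the 109 say little about stability. Many of the counts were 0 and stayed 0. Median scaling gave 5 higher and 3 lower members in Mesoderm minus E8, beside 15.9% and 29.3% of all genes. It gave 1 lower in Nam minus E8 (ESPL1), beside 12.3% of all genes. No background correction gave 0 lower in Mesoderm minus E8, with CENPF at -0.56. Counting each detected probe gave 18 higher and 2 lower of 60 probes in Mesoderm minus E8, 1 higher of 59 in Nam minus E8 and 1 higher of 59 in Nam minus Y27632, since a gene can then count several times; the last 2 are the dim SPC25 probe. The median in Mesoderm minus E8 ranged from 0.20 (median scaling) to 0.39 (each probe). CDC25B, CDC25C, KIF20A, KIF2C and CENPA were at least 1.5-fold higher under each of the 6 settings that alter a gene's value, the main one included. For single members 917 values moved by less than the spread between probes, a limit that also lets sizeable shifts count as staying. The 3 others are those of SPC25 with probes averaged. Leaving out replicates was not possible with 1 array per condition. No paired analysis was possible because each condition has 1 array. Near background a difference is not measurable at this signal, which touches the dim second probes and related genes that an array did not detect. INCENP, the dimmest member, was detected on 4 arrays at 7.70 to 7.94, above the lowest detected levels of 5.54 (Nam) to 5.82 (Y27632).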

Other observations

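Subunits and regulators of the anaphase-promoting complex, which CDC20 activates, did not share a direction on the Mesoderm array. Of 13 compared, 3 subunits were at least 1.5-fold higher than on E8, ANAPC10 (0.91), ANAPC13 (0.77) and ANAPC16 (0.69), and ANAPC4 (-0.68) was lower. Among all genes compared 20.3% were higher and 22.5% lower. Condensin and cohesin genes, which shape and hold sister chromosomes, showed smaller differences, with 0 of 17 called, a median of -0.10 and a range from -0.55 to 0.35.

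On the Y27632 array ANAPC2 was the one gene of the 6 related G2 and mitosis lists with a normalized difference past 1.5-fold (0.99), but its probe was detected on Y27632 only, and the bound is 1.43-fold. Of all genes, 1.58% were called higher on Y27632 than on E8 and 2.03% lower. On the Nam array CHEK2 (-0.62, SD between its 2 probes 0.26) was lower than on E8, as were 6.69% of all genes, with 4.93% higher. CIT (citron kinase, not detected on E8) and NFYB (not detected on Nam) had normalized differences of 0.59 and -0.69, with bounds of 1.31-fold and 1.46-fold that lie under the limit. In Nam minus Y27632, where 4.69% of all genes were higher and 4.89% lower, KNL1 was at 0.62 (SD between its 2 probes 0.46). The MYBL2 probe, not detected on Y27632, was at 0.80, for which no fold can be given. NFYB was lower (-0.75, at least 1.52-fold), and ANAPC2, not detected on Nam, had a difference of -0.79 and a bound of 1.48-fold.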
